A study of Homo sapiens with 4 samples.

Results

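FN1, the gene of fibronectin, was described at the level of its transcripts in T24 cells with and without the catalytic domain of TET1. All transcripts carrying the gene symbol FN1 in the deposited files were taken, which gave 30 of 195700 transcripts. T24 is a human bladder carcinoma line grown in RPMI with 10% FCS. Stable pools carried a lentiviral pCDH vector with a 3×FLAG tag that was either empty (EV, genotype control) or held the TET1 catalytic domain (TET1-CD), and both pools were selected with puromycin, so that the controls shared the vector, the tag and the selection. RNA sequencing of total RNA gave 2 EV and 2 TET1-CD libraries. The labels do not say whether the libraries of a group came from separate cultures, so p-values measured the spread between these libraries, which may be technical. A pool overexpressing a catalytic domain without the rest of TET1 is not a model of the native protein.

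Fibronectin is a dimeric glycoprotein of the extracellular matrix that cells bind through integrins and assemble into fibrils. Its single pre-mRNA is spliced alternatively at the EDB and EDA exons, each of which encodes a whole type III repeat, and within the V region (IIICS), which holds the CS1 sequence recognised by integrin alpha4 beta1. Plasma fibronectin from hepatocytes lacks EDB and EDA, whereas the cellular fibronectin of fibroblasts and many tumors can hold either exon.

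FN1 (ENSG00000115414) lies on the minus strand at chr2:216225163-216300895 (GRCh37). The exons that separate the forms are printed because all inclusion values below rest on them. The EDB exon is exon 25 of FN1-201 at chr2:216257654-216257926 (273 bases, 91 residues), and capitals mark the 217 bases that a partial form, FN1-213, holds. The EDA exon is exon 33 of FN1-201 at chr2:216245534-216245803 (270 bases, 90 residues), and capitals mark a purine-rich match to GAAGAAGA. The CS1 part of the V region occupies chr2:216237024-216237098 (75 bases, 25 residues). All are shown 5′ to 3′ on the FN1 strand, from the GRCh37 genome. In each skipping junction, which identifies a form without the exon, capitals mark the start of the downstream exon.
EDB exon: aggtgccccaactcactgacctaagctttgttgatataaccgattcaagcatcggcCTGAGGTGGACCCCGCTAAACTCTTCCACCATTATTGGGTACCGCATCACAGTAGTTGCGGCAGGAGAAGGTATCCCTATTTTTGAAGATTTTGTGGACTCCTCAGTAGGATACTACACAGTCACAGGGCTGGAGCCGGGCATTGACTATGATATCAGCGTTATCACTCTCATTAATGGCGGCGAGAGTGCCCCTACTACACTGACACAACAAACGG
EDA exon: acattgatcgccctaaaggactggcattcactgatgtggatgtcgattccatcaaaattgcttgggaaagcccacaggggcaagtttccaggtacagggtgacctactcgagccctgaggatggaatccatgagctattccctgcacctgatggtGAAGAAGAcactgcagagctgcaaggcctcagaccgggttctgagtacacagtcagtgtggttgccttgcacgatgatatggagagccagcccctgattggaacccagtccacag
CS1 part of the V region: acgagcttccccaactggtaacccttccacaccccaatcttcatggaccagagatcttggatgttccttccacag
EDB skipping junction: ataccatcatcccagCTGTTCCTCCTCCCA
EDA skipping junction: agactgcagtaaccaCTATTCCTGCACCAA

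The motif GAAGAAGA, a purine-rich splicing enhancer known in the EDA exon and bound by SR proteins, matched once, from base 156 of the EDA exon, and its opposite strand matched 0 times. It matched 2 of 117 internal coding-gene exons of the same length (1.71%) and 0 times in the EDB exon. The motif TGCATG, which RBFOX proteins recognise, matched 6 times on the FN1 strand of the 1116-base intron after EDB, and another 2 times on the opposite strand. Of 93947 windows of that length after internal exons, read on the strand of their gene, 28.3% held at least 1 match and 0.083% at least 6. These matches describe letters and were not tested as sites.

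The libraries held 17442143 to 20295266 fragments. The targeted gene was measured first, and TET1 had normalised read counts of 102 and 89.6 in EV and 3128 and 3153 in TET1-CD. The log2 fold change of TET1 was 5.02 (SE 0.08, adjusted p = 4.9e-10). Across all 14573 genes tested, 19.7% passed an adjusted p of 0.05, 10% higher and 9.61% lower in TET1-CD. Of 9 urothelial markers, 5 had at most 3 counts in every library, KRT5 and KRT20 being at 0, so T24 showed few urothelial markers. The 6 epithelial markers summed to 1463 and 1414 FPKM in EV and 1640 and 1605 FPKM in TET1-CD. The 5 mesenchymal markers summed to 1769 and 1908 FPKM in EV and 1420 and 1456 FPKM in TET1-CD, with TWIST1 at 0. ALB, FGB and APOA1, defining genes of the hepatocyte, were at 0 in every library, although the 6 hepatocyte markers summed to 131 and 162 FPKM in EV and 97.0 and 98.8 FPKM in TET1-CD through SERPINA1 (log2 fold change -0.59, adjusted p = 0.00129, edgeR). The 8 fibroblast markers summed to 1.73 and 1.6 FPKM in EV and 5.16 and 4.1 FPKM in TET1-CD, with 6 of the 8 too low to test, and the 5 leukocyte markers to 13.0 to 18.4 FPKM.

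FN1 was an abundant mRNA of these cells and was lower in TET1-CD. It received 76814 and 61552 fragments in EV and 52322 and 61531 in TET1-CD, and ranked between 10 and 13 among all genes by fragments, a scale that favours long mRNAs. On the FPKM scale, which divides by transcript length and library size, FN1 was at 595 and 607 in EV and at 476 and 510 in TET1-CD, and its rank was between 107 and 137. The TET1-CD libraries were both below the EV libraries, a separation that 61% of genes tested showed in one direction or the other. Normalised read counts were 68650 ± 3154 in EV and 57144 ± 2067 in TET1-CD (SD, n = 2 each). The log2 fold change was -0.26 (SE 0.06, 95% interval -0.40 to -0.13, adjusted p = 0.0141, edgeR quasi-likelihood test), a ratio of 0.832. The call was lost without TET1-CD replicate 1 (adjusted p = 0.299) and without TET1-CD replicate 2 (adjusted p = 0.106). The summed epithelial, mesenchymal, fibroblast and hepatocyte markers given above did not overlap between these groups either. The same held for the remaining marker sets. The urothelial markers summed to 21.5 and 19.9 FPKM in EV and 23.8 and 25.5 FPKM in TET1-CD. The leukocyte markers summed to 13.6 and 18.4 FPKM in EV and 13.3 and 13.0 FPKM in TET1-CD. This separation was therefore not particular to any cell type listed. Of the 4 mesenchymal markers that could be tested, VIM alone was called (log2 fold change -0.39, adjusted p = 0.00232, edgeR), while SNAI2, ZEB1 and CDH2 had log2 fold changes of 0.12, 0.09 and -0.04. Of the 5 epithelial markers that could be tested, 3 were called higher, and KRT8 had a log2 fold change of -0.08. Among the 3 urothelial and 2 fibroblast markers that could be tested, 2 and 1 were called higher. Across all genes tested, 10% were called higher and 9.61% lower. The part of these markers in the FN1 difference was not tested. In such bulk samples, fewer cells making FN1 and less FN1 mRNA per cell cannot be told apart.

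Of the 30 transcripts, 18 were above 0 in all libraries, 7 in some and 5 were listed at 0 throughout. A form was called full length when it held the exon with the start codon and the last coding exon, and 10 forms qualified. These 10 forms share 43 coding exons and cover 10 of the 16 combinations of EDB, EDA and 4 V forms. V forms are named by the residues of the V region that they keep, from V0 to V120. Another 13 transcripts are annotated as retained introns. Only 9 transcripts reached 1% of FN1 FPKM or fragments in any library, and the other 21 summed to 1.99 to 3.26% of FPKM.

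**Figure D1:**
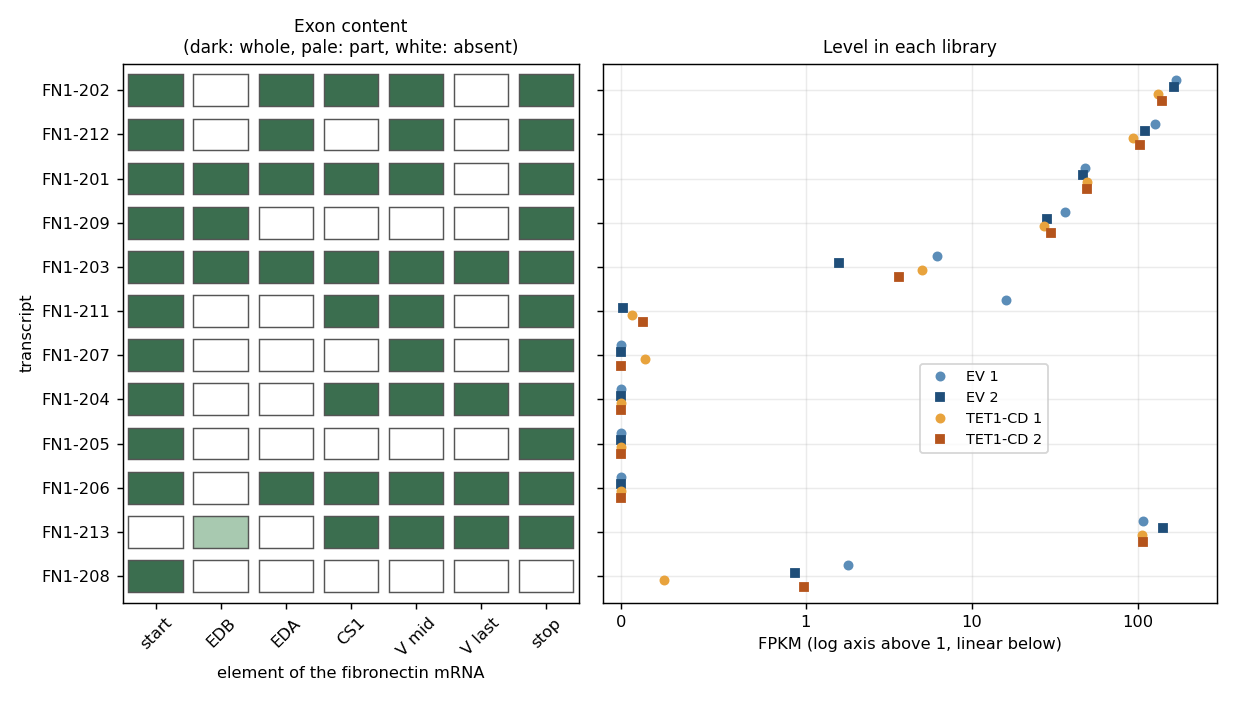
Exon content (left) and FPKM in each of the 4 libraries (right, log axis above 1 and linear below) of the 10 full length FN1 forms, the partial form FN1-213 and the truncated form FN1-208. Boxes are filled where a form holds the element, pale where it holds part of it and white where it lacks it, and the FN1-211 point of EV replicate 1, at 16.1 FPKM, stands apart from its other libraries.

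FN1-202, which skips EDB, includes EDA and keeps V89, was the most abundant full length form. Its FPKM was 168 and 164 in EV and 132 and 139 in TET1-CD. Both TET1-CD libraries were below both EV libraries, and 43.9% of all transcripts tested had groups that did not overlap in FPKM. The log2 fold change of its counts was -0.30 (SE 0.05, 95% interval -0.43 to -0.17), with adjusted p = 0.236 over 43213 transcripts in the edgeR fit. As a share of FN1 FPKM it was 28.3 and 27.0% in EV and 27.7 and 27.3% in TET1-CD. On this scale its share overlapped between the groups while its level did not. Its share of FN1 fragments was 37.55 and 39.18% in EV and 37.25 and 37.31% in TET1-CD, and here the groups did not overlap. In FPKM shares, 36.5% of the transcripts tested for shares had groups that did not overlap. The share test, which runs on counts, did not call FN1-202.

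FN1-212 has the same EDB and EDA choice as FN1-202 but keeps V64, which lacks CS1. Its FPKM was 126 and 110 in EV and 93.1 and 102 in TET1-CD. The groups did not overlap, as for 43.9% of all transcripts tested in FPKM. The log2 fold change of FN1-212 was -0.28 (SE 0.08, adjusted p = 0.361, edgeR). The ratio of FN1-202 to FN1-212 on the FPKM scale was 1.34 and 1.49 in EV and 1.42 and 1.36 in TET1-CD. The groups overlapped in this ratio of CS1-holding to CS1-lacking mRNA.

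FN1-201, the EDB-including and EDA-including V89 form, was the main form with both extra exons. Its FPKM was 47.98 and 46.35 in EV and 49.04 and 49.00 in TET1-CD. Both TET1-CD libraries lay above both EV libraries, unlike the gene total, and 43.9% of all transcripts tested had groups apart in FPKM. The log2 fold change of FN1-201 was 0.05 (SE 0.04, 95% interval -0.06 to 0.16, adjusted p = 0.771, edgeR). Its share of FN1 FPKM was 8.06 and 7.64% in EV and 10.3 and 9.60% in TET1-CD. The shares did not overlap, as for 36.5% of the transcripts tested for shares, and the share test did not call FN1-201. FN1-202 and FN1-201 differ only in the EDB exon, and the ratio of FN1-202 to FN1-201 on the FPKM scale was 3.51 and 3.54 in EV and 2.69 and 2.84 in TET1-CD.

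FN1-209 includes EDB but skips EDA and the whole V region. Its FPKM was 36.6 and 28.4 in EV and 27.0 and 29.8 in TET1-CD, and the groups overlapped (log2 fold change -0.20, SE 0.14, adjusted p = 0.697, edgeR). FN1-203, which holds EDB, EDA and all of the V region, was at 6.17 and 1.58 FPKM in EV and 5.02 and 3.64 FPKM in TET1-CD. The EV libraries enclosed the TET1-CD libraries for this form. The length behind the FPKM of FN1-203 was 8905 bases by the files against 8390 in the current annotation. Its genomic span was 75719 bases against 75204, so its ends, and possibly its exon content, may differ in the authors' annotation. The other 8 forms with an FPKM of at least 5 in EV replicate 1 had implied lengths within 1% of the annotation.

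FN1-211, which skips both EDB and EDA and keeps V89, was seen in strength in a single library. It had 2535 fragments in EV replicate 1, 0.70 in EV replicate 2, 7.94 in TET1-CD replicate 1 and 17.7 in TET1-CD replicate 2. Its FPKM was 16.1 in EV replicate 1 and at most 0.12 in the others. EV replicate 2 lay below both TET1-CD libraries. FN1-211 made 2.70% of FN1 FPKM in EV replicate 1 and at most 0.02% elsewhere. It was the only FN1 transcript whose share passed the test (adjusted p = 9.1e-04, edgeR diffSpliceDGE), against 0.647% of the 38773 transcripts in that test. The value rests on EV replicate 1, since without that library the fitted share difference turned positive (2.53 on the log2 scale) and was not called. It was also not called without TET1-CD replicate 1 (adjusted p = 0.314) or without TET1-CD replicate 2 (adjusted p = 0.212). The other forms that skip EDB and EDA together were scarcely found. FN1-207, with V64, had 18.9 fragments in TET1-CD replicate 1 and was listed at 0 in the others, and FN1-204 and FN1-205 were listed at 0 in all 4 libraries. FN1-206, which skips EDB and includes EDA with V120, was also listed at 0 in all.

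**Figure D2:**
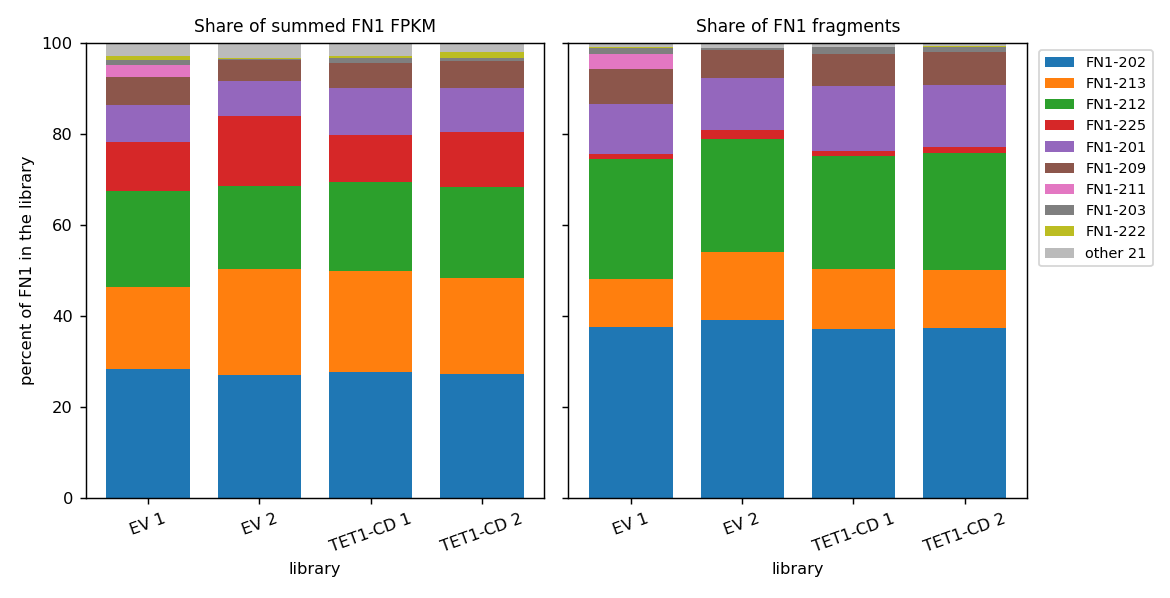
Share of each FN1 transcript in the summed FN1 FPKM (left) and in the FN1 fragments (right) of each library, as stacked bars from 0 to 100%, with the 21 transcripts under 1% in grey. FN1-202 takes 27.0 to 28.3% of FPKM in the 4 libraries, and FN1-211 is visible in EV replicate 1 alone.

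No FN1 transcript passed the level test in the edgeR fit, in which 0.00231% of 43213 transcripts, a single TET1 transcript, were called. Of the 30 FN1 transcripts, 19 passed the filter on low counts, 13 with a fold change below 1 and 6 above. An unadjusted p under 0.05 was reached by 5 transcripts. These were FN1-202, FN1-212, the retained-intron forms FN1-224 and FN1-219, and ENST00000345488, which was not found in the current annotation. DESeq2 on the same counts called 2762 transcripts, among them these 5 of FN1. Its adjusted p was 2.0e-07 for FN1-202, 0.0138 for FN1-224, 0.0195 for FN1-219, 0.0228 for ENST00000345488 and 0.0266 for FN1-212. ENST00000345488 was listed at 0 in both EV libraries and at 15.3 and 14.6 estimated fragments in the TET1-CD libraries, and no fold is given for so few counts. The fragments of FN1-219 numbered 102 and 67.8 for EV against 31.3 and 19.7 for TET1-CD, and those of FN1-224 numbered 412 and 335 against 247 and 244. Both retained-intron forms had lower values in both TET1-CD libraries than in either EV library, and 44.4% of all transcripts tested had groups that did not overlap in normalised counts. The test of the make-up of FN1 as a whole gave adjusted p = 0.282 in edgeR, where 3.18% of 9725 genes were called. FN1-211, high in EV replicate 1 alone, entered this test. With at least 10 counts required in every library, which leaves FN1-211 out, the adjusted p was 0.898 in edgeR. Omitting EV replicate 2 leaves EV replicate 1 as the only control library, so that fit was not read as a call.

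**Figure D3:**
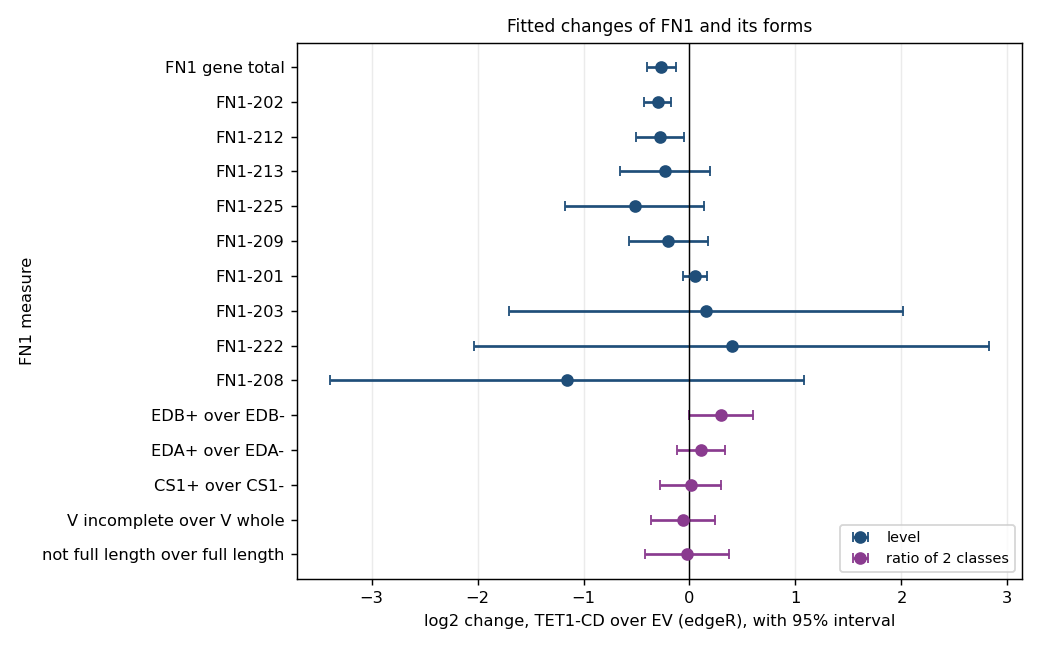
Fitted log2 differences (TET1-CD over EV, edgeR) with 95% intervals for the level of the FN1 gene and 9 of its transcripts (blue) and for the ratio of paired classes of FN1 mRNA (purple). The gene total, FN1-202 and FN1-212 lie below 0 with intervals that exclude 0, and the interval of the EDB ratio runs from -0.0070 to 0.60.

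EDB inclusion had higher values in TET1-CD, and the difference did not pass the test. Forms with the whole EDB exon were 22.6 and 21.8% of the EDB-informative FPKM in EV and 26.5 and 25.4% in TET1-CD. Neither TET1-CD library fell into the range of EV. Single transcripts separated in this way often, as 36.5% of those tested for shares did not overlap in FPKM share. The means were 22.2 ± 0.60% in EV and 26.0 ± 0.73% in TET1-CD (SD, n = 2 each), a difference of 3.75 percentage points. The exact permutation test of the percentages, two-sided, gave p = 0.333, the smallest that 2 against 2 libraries allow. On counts, the difference in the log2 ratio of including to skipping forms was 0.30 (SE 0.13, 95% interval -0.0070 to 0.60), with adjusted p = 0.482 in edgeR. The log2 fold change was -0.03 for the forms that include EDB and -0.33 for those that skip it. The class is made of 3 including and 7 skipping forms, and almost all of its EDB is in FN1-201 and FN1-209.

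The partial form FN1-213 bears on this value. Its annotated mRNA start was not found, it begins inside EDB, skips EDA and keeps V120, and it encodes 1103 residues. Its FPKM was 107 and 141 in EV and 105 and 108 in TET1-CD, with the groups overlapping. FN1-213 took 18.0 and 23.3% of FN1 FPKM in EV and 22.1 and 21.1% in TET1-CD. Counting it as EDB-including, in a class added after the data were seen, gave 39.0 and 44.3% in EV and 45.3 and 44.02% in TET1-CD. The groups then overlapped in FPKM. By fragments, the same class made 31.2 and 34.0% in EV and 36.6 and 35.4% in TET1-CD, and here the groups did not overlap. For comparison, 36.5% of the transcripts tested for shares did not overlap in FPKM share. The difference in log2 ratio for this class was 0.22 (SE 0.11, adjusted p = 0.571, edgeR).

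EDA was included in most FN1 mRNA of both groups. Forms with EDA made 68.5 and 65.5% of the informative FPKM in EV and 67.8 and 68.1% in TET1-CD, so the groups overlapped. The mean difference was 0.981 percentage points (67.0 ± 2.16% in EV and 68.0 ± 0.22% in TET1-CD, SD, n = 2 each). It was 2.51 points without EV replicate 1 and -0.55 points without EV replicate 2. As shares of fragments, they were 78.18 and 78.20% in EV and 79.42 and 79.47% in TET1-CD, and here the groups did not overlap. For comparison, 36.5% of the transcripts tested for shares did not overlap in FPKM share. The difference in the log2 ratio of including to skipping forms was 0.11 (SE 0.09, 95% interval -0.11 to 0.33, adjusted p = 0.898, edgeR). Among full length forms alone, EDA was in 86.9 and 91.9% of FPKM in EV and in 91.1 and 90.8% in TET1-CD. The lowest value is that of EV replicate 1, the library with FN1-211. Over all forms, most of the FPKM that skips EDA was the partial form FN1-213. It had 107 and 141 of 160 and 170 FPKM in EV, and 105 and 108 of 132 and 137 FPKM in TET1-CD. The value over all forms thus largely follows FN1-213.

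Most FN1 mRNA lacked part of the V region. Forms lacking all or part of it made 77.2 and 71.2% of informative FPKM in EV and 73.2 and 73.3% in TET1-CD, with TET1-CD inside the range of EV. The mean difference of -0.902 points was 2.11 points without EV replicate 1 and -3.91 points without EV replicate 2. Among full length forms the share was 98.5 and 99.5% in EV and 98.4 and 98.9% in TET1-CD. V89 forms were the most abundant, at 44.2 ± 1.70% in EV and 43.3 ± 0.53% in TET1-CD. V120 followed at 25.8 ± 4.25% and 26.7 ± 0.07%, most of it the partial form FN1-213. V64 stood at 23.1 ± 1.49% and 22.6 ± 0.63%, V0 at 6.35 ± 0.95% and 6.58 ± 0.21%, and V95 at 0.59 ± 0.11% and 0.81 ± 0.23% (SD, n = 2 each, EV then TET1-CD). The order of V89, V120, V64, V0 and V95 held for the means, and V120 and V64 did not differ beyond their spread in EV. CS1, a class added after the data were seen, was held by 68.2 and 71.8% in EV and 70.4 and 69.6% in TET1-CD (difference in log2 ratio 0.01, 95% interval -0.28 to 0.30, not called by edgeR).

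**Figure D4:**
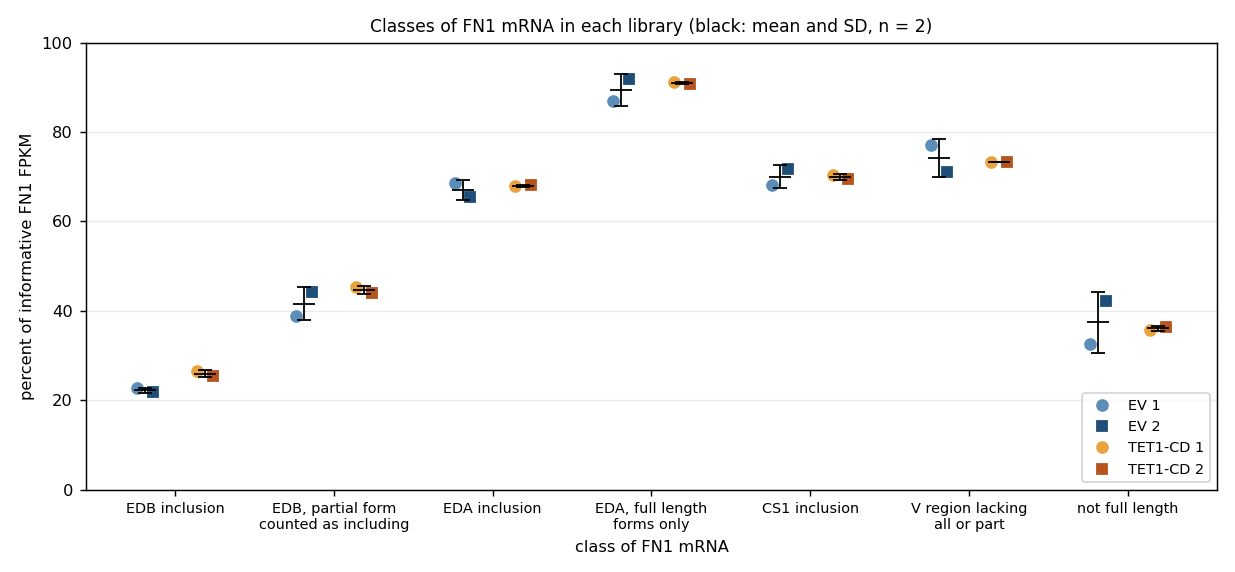
Percent of the informative FN1 FPKM in each class of mRNA, 1 point for each library, with black bars for the mean and SD of each group (n = 2). EDB inclusion sits at 21.8 to 22.6% in EV and 25.4 to 26.5% in TET1-CD, and the groups overlap in the other classes drawn.

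Forms that are not full length made 32.6 and 42.2% of FN1 FPKM in EV and 35.6 and 36.5% in TET1-CD. The largest of them was FN1-213, with 107 and 141 of 194 and 256 FPKM in EV and 105 and 108 of 170 and 186 FPKM in TET1-CD. By fragments the share was 12.8 and 17.8% in EV and 15.1 and 14.9% in TET1-CD, since FPKM gives short transcripts more weight. The FPKM difference of -1.36 points was -6.12 points without EV replicate 1 and 3.41 points without EV replicate 2. The TET1-CD libraries lay between the EV libraries on both scales (difference in log2 ratio -0.03, 95% interval -0.42 to 0.37, not called by edgeR). FN1-225, a retained-intron transcript of 4 exons and 676 bases, was at 64.2 and 93.4 FPKM in EV and 48.9 and 61.7 FPKM in TET1-CD. Both TET1-CD libraries were lower, and 43.9% of all transcripts tested had groups that did not overlap in FPKM. The log2 fold change of FN1-225 was -0.52 (SE 0.24, adjusted p = 0.551, edgeR). As a share of FN1 FPKM it was 10.8 and 15.4% in EV and 10.3 and 12.1% in TET1-CD, with the groups overlapping. The short retained-intron transcript FN1-222 was at 5.38 and 1.51 FPKM in EV and 2.26 and 6.82 FPKM in TET1-CD, and its groups overlapped.

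FN1-208 is the truncated form with 13 exons and 657 residues, whose last exon reads on into an intron, the structure known from migration-stimulating factor. It had 86.8 and 39.0 fragments in EV and 9.63 and 46.4 in TET1-CD. Its FPKM was 1.79 and 0.94 in EV and 0.23 and 0.99 in TET1-CD, so the groups overlapped. It made 0.05 to 0.30% of FN1 FPKM in the 4 libraries, and the log2 fold change was -1.15 (SE 0.81, 95% interval -3.39 to 1.08, adjusted p = 0.711, edgeR).

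Of 12 integrin genes listed as receptors, 8 could be tested, and 1 was higher and 0 lower in edgeR. The share called was 12.5% beside 19.7% of all genes. ITGB3, the beta3 partner of ITGAV, had normalised read counts of 747 and 768 in EV and 1122 and 1072 in TET1-CD, a log2 fold change of 0.53 (SE 0.07, adjusted p = 5.1e-04). ITGB3 shares its locus with an annotated read-through gene, so its count is uncertain. ITGA5, which with ITGB1 forms the main fibronectin receptor, had 3626 and 3487 in EV and 3676 and 3586 in TET1-CD (log2 fold change 0.03, 95% interval -0.09 to 0.15). ITGB1 had 25833 and 22582 in EV and 25251 and 23927 in TET1-CD, with overlapping groups. ITGAV had 5173 and 4908 in EV and 5469 and 5743 in TET1-CD (log2 fold change 0.15, adjusted p = 0.0809). ITGA3, a laminin-binding chain listed with the receptors, had 13535 and 12789 in EV and 11679 and 11751 in TET1-CD (log2 fold change -0.17, adjusted p = 0.0529). ITGA4, the CS1 receptor chain, had at most 1 count in any library.

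Of 14 co-receptors and assembly factors, all tested, 6 were higher, 1 lower and 7 not called, beside 10% higher and 9.61% lower of all genes. Their median log2 fold change was 0.11. PXN, the focal adhesion adaptor paxillin, had normalised read counts of 6303 and 5911 in EV and 7738 and 7542 in TET1-CD (log2 fold change 0.32, SE 0.05, adjusted p = 0.00315). FERMT1, a kindlin that activates integrins, had 1164 and 1124 in EV and 1407 and 1372 in TET1-CD (log2 fold change 0.28, adjusted p = 0.00978). ILK, an adaptor of integrin tails, rose by 0.24 on the log2 scale (adjusted p = 0.0106) and SDC3, a heparan sulfate proteoglycan, by 0.28 (adjusted p = 0.0109). None of the 7 called genes differed by 2-fold or more. The calls of PXN, FERMT1, ILK and SDC3 were all lost without TET1-CD replicate 1 and without TET1-CD replicate 2, with adjusted p from 0.0508 to 0.173 in edgeR.

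Matrix partners had log2 fold changes from -1.43 upwards and included all called genes of these lists with a fold of at least 2. Of 28 genes, 22 were tested, 8 were higher, 5 lower and 9 not called. COL1A1, a fibrillar collagen that binds fibronectin, had normalised read counts of 81.2 and 75.5 in EV and 283 and 299 in TET1-CD (log2 fold change 1.89, SE 0.13, adjusted p = 1.0e-05). LOX, the crosslinking lysyl oxidase, had 1138 and 1290 in EV and 458 and 441 in TET1-CD (log2 fold change -1.43, SE 0.08, adjusted p = 3.5e-06). TGM2, the transglutaminase that crosslinks fibronectin, had 27402 and 27000 in EV and 43382 and 42008 in TET1-CD (log2 fold change 0.65, SE 0.05, adjusted p = 4.3e-05). HSPG2, the proteoglycan perlecan, had 188 and 187 in EV and 381 and 460 in TET1-CD (log2 fold change 1.17, adjusted p = 1.5e-04). Called genes with a fold of at least 2, which are 3.77% of all genes tested, numbered 5 here, and those not yet given were named after their values were seen. They were LTBP1, a latent TGF-beta binding protein with 12 counts in each EV library against 44 and 33 for TET1-CD, and COL5A1, a minor fibrillar collagen with 1 and 0 against 44 and 48 counts. Over the 3 roles, 21 of 44 genes tested were called, 15 higher and 6 lower, against 19.7% of all genes, with a median log2 fold change of 0.09 beside 0.00095 for all genes. The count fell to 9 without TET1-CD replicate 1 and to 10 without TET1-CD replicate 2. FN1 itself was lower while 15 of these genes were higher, as the plot of the lists by role shows.

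**Figure D5:**
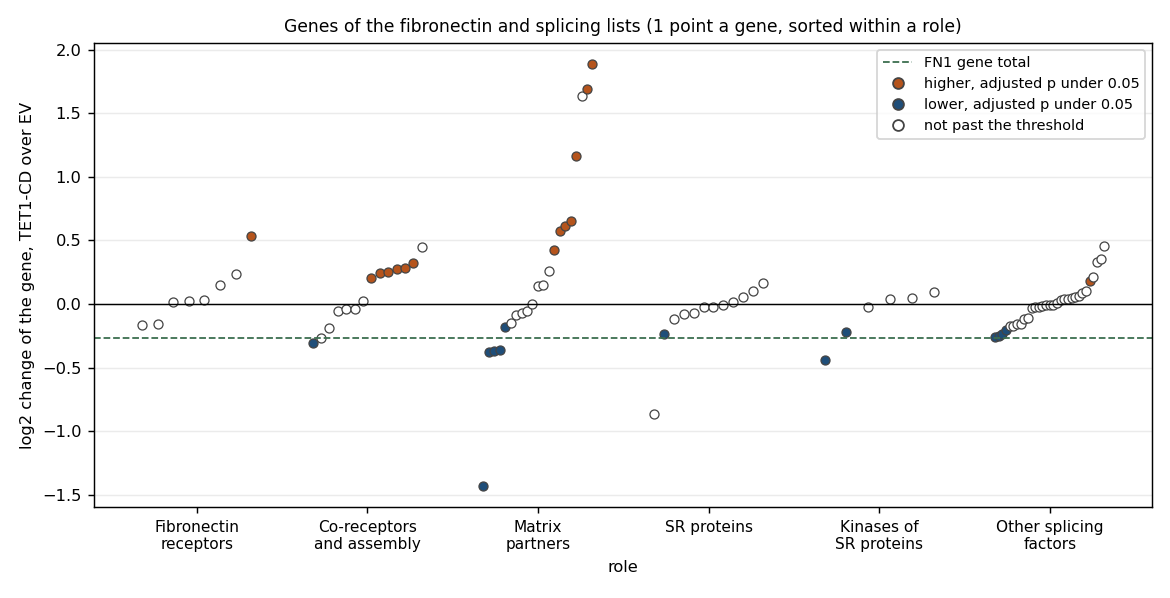
Log2 change (TET1-CD over EV) of each tested gene of the fibronectin and splicing lists by role, 1 point a gene, sorted within a role and filled where adjusted p was under 0.05. COL5A1, at 1 and 0 counts in EV, is left out, and the dashed line is the FN1 gene total at -0.26.

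Splicing factors with a known part in alternative exons of this kind were called at about the rate of all genes, both directions together. Of 55 genes, 49 were tested, and 8 were called, 1 higher and 7 lower, which is 16.3% against the 19.7% of all genes. By direction, 10% of all genes were higher and 9.61% lower, whereas the calls of this list lay mostly on the lower side. The median log2 fold change was -0.0097. RBFOX2, which binds TGCATG, had normalised read counts of 3124 and 2846 in EV and 2463 and 2525 in TET1-CD (log2 fold change -0.26, SE 0.06, adjusted p = 0.0154). PTBP3, a polypyrimidine tract binding protein, had 4991 and 4891 in EV and 4186 and 4123 in TET1-CD (log2 fold change -0.25, adjusted p = 0.00829). HNRNPH1, a regulator that binds G-rich runs, fell by 0.21 on the log2 scale (adjusted p = 0.0188). DDX17, an RNA helicase, fell by 0.24 (adjusted p = 0.0262). ESRP1 and ESRP2, epithelial splicing regulators, were low, at 12.9 to 18.1 and 32.4 to 55.3 normalised read counts over the 4 libraries.

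Of 12 SR proteins, TRA2A alone was called, which is 8.33% beside 19.7% of all genes. TRA2A had normalised read counts of 1123 and 1063 in EV and 901 and 960 in TET1-CD (log2 fold change -0.23, adjusted p = 0.0351). SRSF1, which binds the EDA enhancer, had 10550 and 9943 in EV and 10201 and 10017 in TET1-CD (log2 fold change -0.02, 95% interval -0.14 to 0.10). SRSF5 had 2423 and 2428 in EV and 2281 and 2325 in TET1-CD, a log2 fold change of -0.07 with adjusted p = 0.366. SRSF7 had 2467 and 2537 in EV and 2636 and 2557 in TET1-CD, a log2 fold change of 0.05 with adjusted p = 0.536. SRSF3, SRSF4 and SRSF2 had log2 fold changes of -0.12, 0.16 and 0.10 and adjusted p of 0.139, 0.142 and 0.215. Among 6 kinases of SR proteins, 2 were called, which is 33.3% beside 19.7% of all genes. CLK4 was lower (309 and 344 in EV, 244 and 238 in TET1-CD, log2 fold change -0.44, adjusted p = 0.0175). CLK1 was also lower, by -0.22 on the log2 scale (adjusted p = 0.0321), whereas SRPK1 and SRPK2 had log2 fold changes of 0.09 and 0.04 and were not called. All splicing calls were lost without TET1-CD replicate 1 and without TET1-CD replicate 2, and 16 genes were called without EV replicate 2.

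The genes whose profile over the 4 libraries was closest to FN1 were sought among 490 protein-coding genes of the 500 most abundant. Closeness was the Euclidean distance of log2 CPM centred on each gene's mean. SEMA3C, a secreted semaphorin, was the closest at 0.0229. SLC38A2, an amino acid transporter, followed at 0.0524, TOP2A, a topoisomerase, at 0.0648, NOTCH2, a Notch receptor, at 0.0655, and DDX17 at 0.0674. With 4 libraries, such a distance describes the profile and was not tested.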

How the data were processed

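RNAseq of T24 cells (2 EV and 2 TET1-CD libraries) was analysed. The authors deposited, for each transcript, expected counts (estimated fragments that need not be whole) and FPKM values, scaled by transcript length and library size. Per the labels, the submitters' processing notes name cutadapt 1.9.1, HISAT2 2.0.1, HTSeq 0.6.1, DESeq2 and the build hg19. The program behind the fractional counts and the annotation release are not given in the sources used here. Whether poly(A) selection or rRNA removal was used is not settled by the protocol. Fragments that several forms share were divided by the authors' estimate, so shares of forms carry an error that the spread of 2 libraries may not show.

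Exon content came from GENCODE release 44 on GRCh37, in which 27 of 30 FN1 transcripts were found by identifier. Counts were rounded and tested on the whole tables with edgeR 4.0.16 (glmQLFit and glmQLFTest, TMM, filterByExpr, R 4.3.3) for genes and transcripts, and with diffSpliceDGE for shares. Calls were made at an adjusted p under 0.05 (Benjamini-Hochberg). Standard errors were the log2 fold change over the square root of F. For a class ratio, the sums of both classes replaced the FN1 transcripts in the whole table. Normalised read counts were scaled to the mean library size. The fits were tested on simulated data, in which the gene fit recovered most of the planted changes, the transcript fit a minority of the smaller ones, and the share fit few. DESeq2 1.42.0 and limma 3.58.1 (voom with diffSplice, and log2(FPKM + 1)) were alternatives.

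Totals were 17442143 to 20295266 fragments, and small forms rest on few of them. Members and lists were chosen with earlier results of these data known. Named were transcripts with at least 1% of FN1 in any library or past a test, per role the 4 listed genes with the smallest p, 9 genes by name, and the 5 genes most like FN1. TNS2 was matched by gene identifier under its older symbol. ITGB3 and SRSF10 each occur under a second gene identifier, which was left out. A defining epithelial junction gene is not reported here.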

Additional observations from a re-analysis of the deposited data

How the results depend on the processing

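FN1 was lower in TET1-CD under every alternative run for its gene total, at -0.31 to -0.22 on the log2 scale when single libraries were left out. It was not called without TET1-CD replicate 1 (-0.23), without TET1-CD replicate 2 (-0.30) or with a fold of at least 2 required (-0.26). The number of FN1 transcripts called by level was 0 in edgeR, 5 with DESeq2, 1 with no filter and 0 when any single library was left out. The number called by share was 1 (FN1-211), 0 with limma voom, 0 with at least 10 counts in every library, 0 with the replicate block and 0 to 1 when single libraries were left out. Of the fibronectin partner genes, 21 were called, 9 to 25 when single libraries were left out and 5 with a fold of at least 2 required. Of the splicing factors, 8 were called, 5 with DESeq2, 0 with limma on log2(FPKM + 1), 0 with a fold of at least 2 and 0 to 16 when single libraries were left out. Counting FN1-213 as EDB-including moved the EDB difference from 3.75 to 3.03 percentage points. When single libraries were left out, the EDB difference ranged from 3.23 to 4.26 points and from 0.26 to 0.34 in log2 ratio.

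Several values changed sign between fits. All of them were uncalled in the main fit except the share of FN1-211. In percent of FPKM, the differences ranged over the omissions from -0.55 to 2.51 points for EDA, from -3.91 to 2.11 for the V region, from -1.82 to 1.80 for CS1 and from -6.12 to 3.41 for forms that are not full length, with both ends set by the omission of an EV library. Over the omissions, the difference in log2 ratio ranged from -0.27 to 0.14 for the V region, from -0.078 to 0.090 for CS1 and from -0.30 to 0.27 for forms that are not full length, the last at 0.020 with protein coding transcripts only. The log2 fold change ranged from -0.50 to 1.44 for FN1-203, from -7.46 to 3.42 for FN1-211 (its share from -4.97 to 2.53) and from -0.61 to 1.60 for FN1-222. It ranged from -5.8e-04 to 0.053 for ITGA5, from -0.073 to 0.12 for ITGB1 and from -0.064 to 0.019 for SRSF1. With limma it was 0.0097 for SRSF1 and -0.13 for ESRP1. The negative end for FN1-211 needs EV replicate 1, without which it was 3.42. The other causes were not tested.

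The labels give both groups the same replicate numbers. Deviations of same-numbered libraries correlated by 0.0071 over genes and -0.0071 over transcripts, so no shared deviation was seen. The labels name no pairing, and these correlations cannot show whether same-numbered libraries were prepared together. With the replicate block, 3235 genes were called in place of 2865 and 0 transcripts in place of 1, and FN1 stayed called (-0.26). With 2 libraries per group, the scarce forms, such as FN1-208 with 9.63 to 86.8 fragments, have intervals too wide to show a moderate difference.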
